A study of Mus musculus with 4 samples.

Results

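Abca1, Abcg1, Apoe, Lpl and Nr1h3 are 5 mouse genes of cholesterol export and lipoprotein handling, followed here in single cells of lung and blood. They were chosen by gene symbol, and each of the 5 was found once among 32285 listed genes. Their levels were read in neutrophils, classical and non-classical monocytes, alveolar macrophages and B cells, each gated by marker genes, with T cells and NK cells beside them.

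The study sequenced 4 libraries from female C57/Bl6 mice aged 6 to 8 weeks. The metastasis arm received 800000 B16F10 melanoma cells into the spleen on day 0, a route that seeds the liver, and the spleen was then removed. The sham arm received saline into the spleen and the same splenectomy. Mice of both arms also carried a subcutaneous tumour from 250000 B16F10 cells, so the sham mice were tumour-bearing as well and neither arm had a spleen. Lung and blood were taken on day 7, which gave lung from metastasis mice, lung from sham mice, blood from metastasis mice and blood from sham mice, with 1 library each. Lungs were filtered and passed over dead-cell removal columns, blood leukocytes came from density centrifugation, and the design text names kits that enrich CD45+ cells. The number of mice behind a library is not given.

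With 1 library per tissue and arm there is no replicate, so no test of the arms was possible and every interval below is a 95% interval for counting error only. The libraries held 12967 cells in metastasis lung, 13428 in sham lung, 8486 in metastasis blood and 12287 in sham blood after filters. Of these, 6547, 11724, 5142 and 11732 cells, in the same order, had a marker-defined class. Haemoglobin took 43.7% to 78.6% of all unique molecular identifiers (UMIs, one per captured RNA molecule), so levels are given as CPM, UMI counts scaled to the total left without haemoglobin. Pairs of libraries shared 109 to 316 cell barcodes, at most 1.07% of the smaller library. Of the markers that defined the gates, all 15 neutrophil markers were present in the neutrophils of each library, and all 12 alveolar macrophage markers in the alveolar macrophages of both lungs. Cells were chosen by these same markers, so their presence is no check of the classes. Marker sums of melanoma cells stayed at or below 1.41 CPM in the 5 main classes. Classes were small in places: sham lung held 49 neutrophils and 38 classical monocytes, and the lungs held 26 alveolar macrophages in metastasis and 31 in sham mice.

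Cells cannot break down the sterol ring, so surplus cholesterol is exported. Abca1 is a membrane transporter that loads cholesterol and phospholipid onto lipid-poor apolipoprotein A-I, and Abcg1 passes cholesterol on to high-density lipoprotein particles. Apoe is a secreted apolipoprotein that macrophages release and that lipoprotein particles carry. Lpl, lipoprotein lipase, cleaves the triglycerides of circulating lipoproteins. Nr1h3 encodes LXR alpha, a nuclear receptor for oxysterols that pairs with a retinoid X receptor and, in macrophages, activates the other 4 genes. Alveolar macrophages clear lung surfactant, and mice without Abcg1 accumulate lipid in these cells.

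In the GENCODE annotation of GRCm38 the 5 protein-coding genes lie apart. Abca1 (ENSMUSG00000015243) covers chr4:53030787-53159895 on the minus strand, Abcg1 (ENSMUSG00000024030) chr17:31057675-31117988 on the plus strand, and Apoe (ENSMUSG00000002985) chr7:19696109-19699188 on the minus strand. Lpl (ENSMUSG00000015568) covers chr8:68880491-68907448 on the plus strand and Nr1h3 (ENSMUSG00000002108) chr2:91184061-91202834 on the minus strand. RefSeq promoters (build GRCm38.p6) matched 3 of the 5 genes, Abca1, Apoe and Nr1h3. The 250 bases before the start are shown for Abca1, which stood higher in metastasis neutrophils of blood, and for Apoe, which differed in both monocyte classes and in B cells of blood: Abca1 (chr4:53159896-53160145, minus strand) and Apoe (outermost of 3 listed starts, chr7:19699189-19699438, minus strand), 5′ to 3′ with motif matches in capitals.
Abca1: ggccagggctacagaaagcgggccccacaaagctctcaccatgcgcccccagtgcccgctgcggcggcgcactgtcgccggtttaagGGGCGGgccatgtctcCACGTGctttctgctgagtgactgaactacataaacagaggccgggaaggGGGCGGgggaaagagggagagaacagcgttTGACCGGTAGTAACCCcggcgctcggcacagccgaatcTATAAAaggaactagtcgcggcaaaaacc
Apoe: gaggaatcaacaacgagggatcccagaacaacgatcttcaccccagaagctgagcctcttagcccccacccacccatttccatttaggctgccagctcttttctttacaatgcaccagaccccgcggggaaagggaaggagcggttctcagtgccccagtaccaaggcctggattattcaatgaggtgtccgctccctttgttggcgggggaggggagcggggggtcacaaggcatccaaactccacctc

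Each promoter was searched on both strands for 4 motifs. A direct repeat of AGGTCA with 4 bases between the copies, the type of element LXR binds with its partner, was allowed 3 mismatches in its 12 fixed letters, and 18.5% of 32851 RefSeq promoters of this length held such a match. The Abca1 promoter held it at positions -67 to -52 from the start, on the strand opposite to the gene, as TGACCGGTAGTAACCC. It also held CACGTG at -147 to -142 (6.02% of promoters), GGGCGG at -163 to -158 and at -97 to -92 (32.7%), and TATAAA at -29 to -24 (12.4%), with no overlap between matches. The Apoe window held none of the 4, which says only that these letters are not in it.

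The 5 genes marked different cells. Apoe was abundant in both monocyte classes, present in B cells and not detected in alveolar macrophages, whereas Lpl and Abcg1 were highest in alveolar macrophages. Abca1 was spread over B cells, macrophages, monocytes and neutrophils. Nr1h3 was low everywhere and was found mainly in non-classical monocytes and alveolar macrophages.

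**Figure D1:**
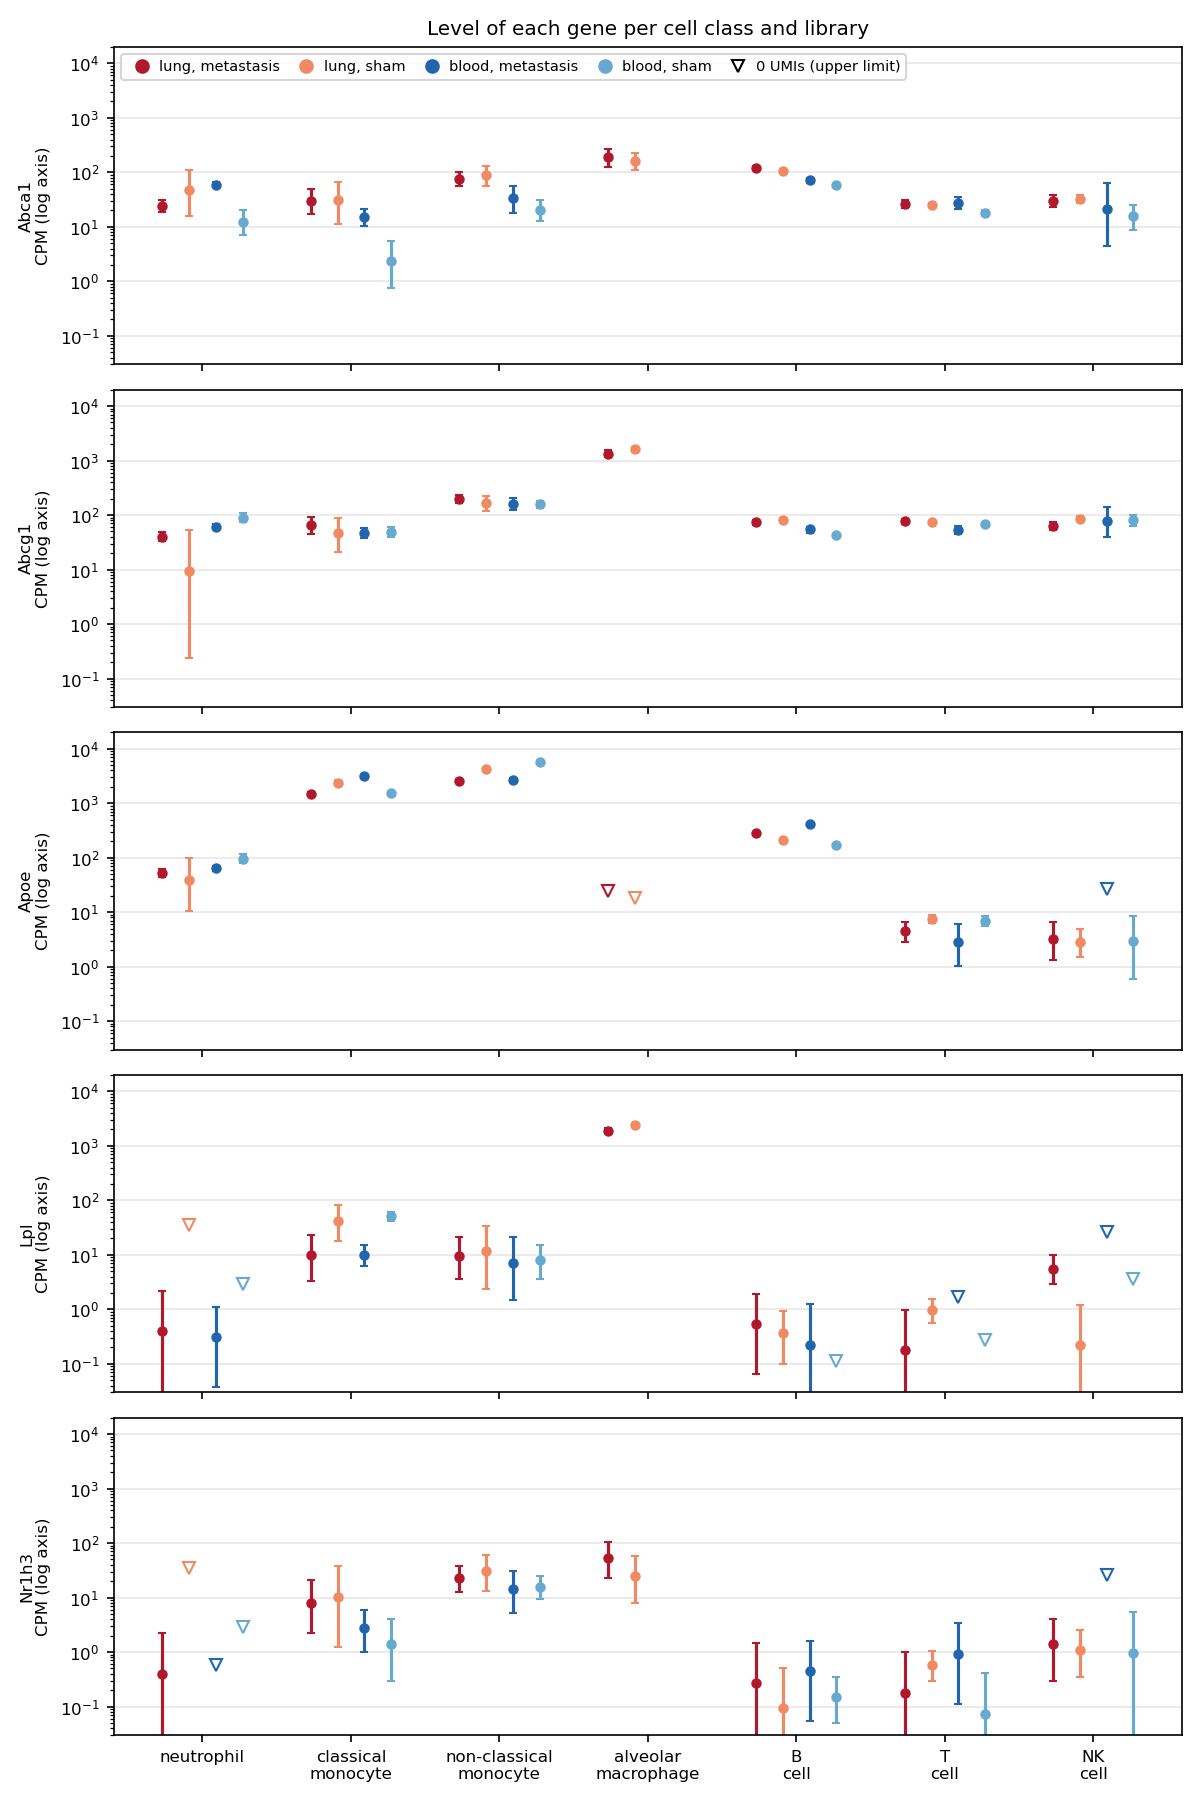
Level of each gene (CPM without haemoglobin, log axis) in 7 cell classes of the 4 libraries, with exact Poisson 95% intervals. Open triangles mark the upper limit where no UMI was counted, and lower whiskers end at the axis. Apoe stands at 1478 CPM or more in all monocyte groups, and among these classes Lpl and Abcg1 reach 1338 CPM or more in alveolar macrophages alone.

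Nr1h3, the receptor, reached 52.5 CPM in alveolar macrophages of metastasis lung and 24.3 CPM in those of sham lung, from 8 and 5 UMIs. Non-classical monocytes had 22.6 CPM in metastasis lung, 30.9 CPM in sham lung, 14.4 CPM in metastasis blood and 15.9 CPM in sham blood. These levels overlapped within counting error between the arms of each tissue. Classical monocytes had 8.07, 10.3, 2.73 and 1.40 CPM in the same order of libraries, from at most 6 UMIs each. Neutrophils and B cells had at most 0.44 CPM in any library, but the 0 UMIs of sham lung neutrophils have an upper limit of 35.3 CPM. Nr1h2, which encodes the related receptor LXR beta, was read beside it. It had 56.6 CPM in non-classical monocytes of metastasis lung, 58.0 CPM in sham lung, 45.6 CPM in metastasis blood and 54.8 CPM in sham blood. In B cells it had 33.6 to 40.2 CPM over the 4 libraries.

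Abca1 had 190 CPM in alveolar macrophages of metastasis lung and 161 CPM in those of sham lung. Among the main classes B cells followed, with 122 CPM in metastasis lung, 107 CPM in sham lung, 72.0 CPM in metastasis blood and 58.1 CPM in sham blood. In the lungs the intervals of alveolar macrophages and B cells overlapped, and in sham blood B cells stood apart from the next class, the non-classical monocytes at 20.3 CPM. T cells had 18.02 to 27.4 CPM and NK cells 15.6 to 32.4 CPM. Among the main classes, T cells and NK cells, the lowest level was in classical monocytes of sham blood, at 2.33 CPM. Barcodes of that library with under 200 genes had 2.60 CPM.

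Abcg1 had 1338 CPM in alveolar macrophages of metastasis lung and 1625 CPM in those of sham lung, apart from every other class of the same library. Non-classical monocytes came next, with 199 CPM in metastasis lung, 166 CPM in sham lung, 161 CPM in metastasis blood and 157 CPM in sham blood. Classical monocytes (46.3 to 66.6 CPM), B cells (43.1 to 81.1 CPM), T cells (53.5 to 76.2 CPM) and NK cells (63.8 to 86.1 CPM) were lower, and in sham blood T cells stood apart from classical monocytes and B cells.

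Apoe had 2607 CPM in non-classical monocytes of metastasis lung, 4301 CPM in sham lung, 2724 CPM in metastasis blood and 5806 CPM in sham blood. In classical monocytes it had 1478, 2395, 3154 and 1560 CPM in the same order. Alveolar macrophages held 0 Apoe UMIs in 26 cells of metastasis lung and 0 in 31 cells of sham lung. The floor of 3 UMIs there is 19.7 CPM in metastasis lung and 14.6 CPM in sham lung, so an Apoe level of the B cell or monocyte size would have been seen. B cells had 280, 213, 416 and 174 CPM in the order above, and 19.99% to 28.9% of B cells held an Apoe UMI. T cells, which should lack Apoe, held an Apoe UMI in 0.75% to 1.58% of cells at median depths of 2860.5 to 5437.5 UMIs, against 1726 to 3458 UMIs in B cells. Barcodes with under 200 genes gave 6.92 to 14.1 CPM of Apoe. Each of these held 500 or more UMIs, and whether they measure RNA from outside cells was not tested. The Apoe share of B cells lay above that of T cells in all 4 libraries. In B cells of cluster 12, described below, the share was only 2.09% to 5.57%, at 18.5 to 43.1 CPM.

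Lpl had 1902 CPM in alveolar macrophages of metastasis lung and 2448 CPM in those of sham lung, where 96.2% and 90.3% of cells held a UMI. Classical monocytes had 10.1 CPM in metastasis lung, 41.1 CPM in sham lung, 9.995 CPM in metastasis blood and 51.3 CPM in sham blood. Non-classical monocytes had 7.19 to 11.6 CPM in the 4 libraries. B cells had at most 0.53 CPM and neutrophils at most 0.39 CPM, but the 0 UMIs of sham lung neutrophils have an upper limit of 35.3 CPM.

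Metastasis and sham libraries were compared class by class, the question being how cells of lung and blood differ in mice that also carry liver metastases. A gene counted as measured when the compared libraries held 50 or more of its UMIs together, and as past the limit at 2-fold or more. In blood, Abca1 was higher in metastasis neutrophils, Apoe was higher in metastasis classical monocytes and B cells but lower in metastasis non-classical monocytes, and Lpl was lower in metastasis classical monocytes. Apoe was also lower in metastasis T cells of blood, with 2.79 CPM in metastasis and 6.97 CPM in sham blood (6 and 94 UMIs, log2 ratio -1.32, -2.80 to -0.15). Both levels were below those of barcodes with under 200 genes in the same libraries, at 6.92 CPM in metastasis and 14.1 CPM in sham blood. In sham blood 1 T cell held 30 of the 94 Apoe UMIs. An Apoe UMI was seen in 1.10% of metastasis and 1.58% of sham T cells, so the fold rests in part on that cell. Apoe in non-classical monocytes was within 2-fold with classes from clusters (-0.88) or as a mean over cells (-0.91). Apoe in classical monocytes was also at the limit, since the interval of its log2 ratio (0.96 to 1.08) held 2-fold. It was within 2-fold relative to the median gene (0.97), without cells holding dendritic markers (0.97) and without platelet-marked cells (0.31). In lung, only Abcg1 in neutrophils passed 2-fold, and that rested on 1 UMI in sham lung.

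Among all measured genes of blood, 18.2% passed 2-fold in neutrophils, 2.99% in classical monocytes, 4.01% in non-classical monocytes, 2.67% in B cells, 2.7% in T cells and 7.81% in NK cells. Of the 5 genes, 1 of 3 measured passed in blood neutrophils, 2 of 3 in classical monocytes, 1 of 2 in non-classical monocytes, 1 of 3 in B cells, 1 of 3 in T cells and 0 of 1 in NK cells. In lung, 17.4% of measured genes passed in neutrophils, 2.98% in classical monocytes, 2.82% in non-classical monocytes, 2.46% in alveolar macrophages, 1.03% in B cells, 1.39% in T cells and 0.894% in NK cells. The genes of interest gave 1 of 3 in lung neutrophils, 0 of 1 in classical monocytes, and 0 of 3 in non-classical monocytes, in alveolar macrophages, in B cells and in T cells, with 0 of 2 in NK cells. For neutrophils, 1 of 3 beside a background of 17.4% in lung and 18.2% in blood is no result about these genes as a set.

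**Figure D2:**
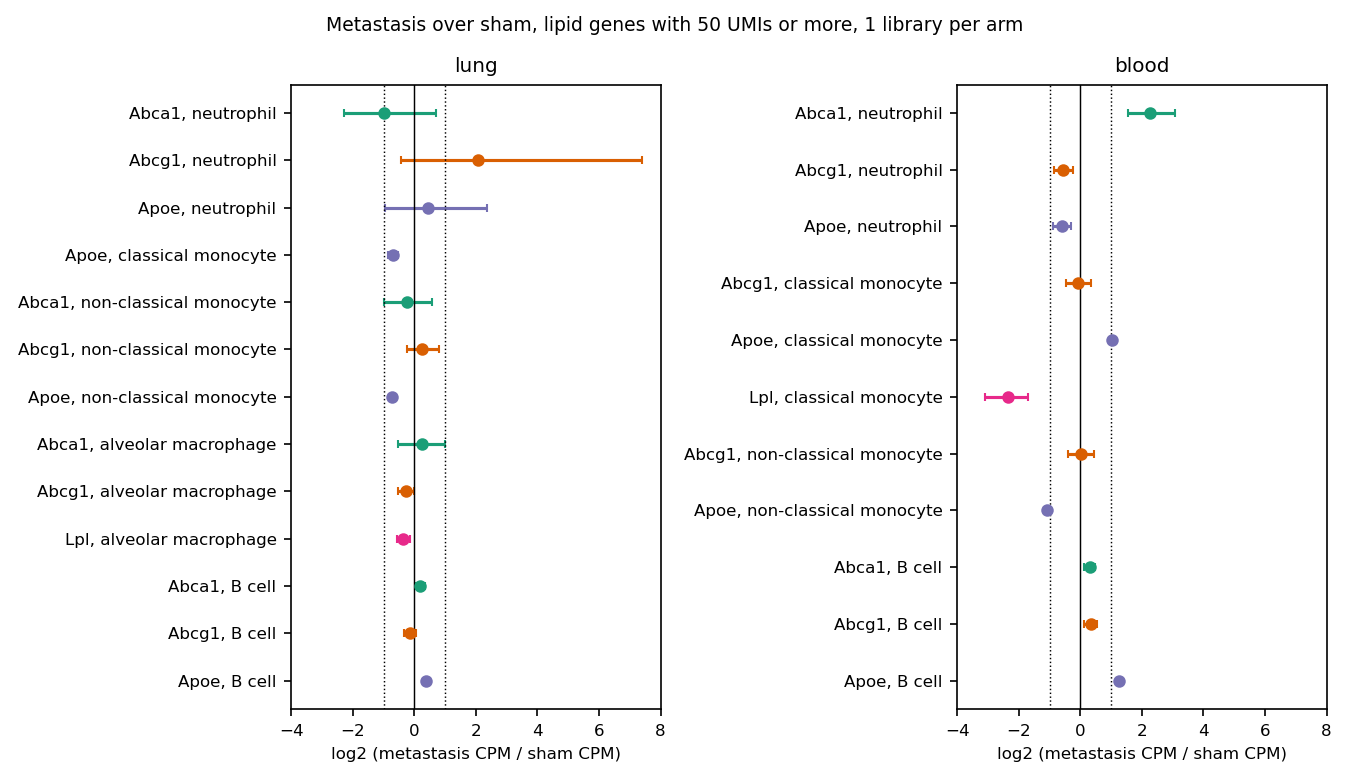
Log2 ratio of CPM in metastasis over sham libraries for each gene and class with 50 or more UMIs, in lung (left) and blood (right). Bars are exact conditional binomial 95% intervals for counting error, the solid line is equality and dotted lines are 2-fold. In blood, Abca1 in neutrophils (2.26) and Lpl in classical monocytes (-2.36) lie farthest from equality.

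Abca1 in blood neutrophils had 382 UMIs in 2224 metastasis cells and 16 UMIs in 407 sham cells, or 59.7 CPM (53.8 to 66.0) and 12.5 CPM (7.14 to 20.3). The log2 ratio was 2.26 (1.54 to 3.08). A UMI was seen in 12.7% of metastasis and 3.44% of sham neutrophils. With each cell thinned to 1000 UMIs, which left out 36 metastasis and 14 sham cells, the shares were 6.22% and 1.78%. Neutrophils of the blood libraries came from different clusters, however. Cluster 25, led by Retnlg, Ifitm6 and Stfa2l1 and holding Ngp and Lcn2 of neutrophil granules, contained 1594 of the metastasis neutrophils and 2 of the sham ones. Cluster 24, led by Csf3r, Il1b and Clec4d, contained 626 metastasis and 402 sham neutrophils.

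Within cluster 24 Abca1 had 8.63 CPM (4.60 to 14.8) in metastasis cells and 12.8 CPM (7.30 to 20.7) in sham cells, a log2 ratio of -0.57 (-1.74 to 0.58), so the direction turned and the interval held equality. Cluster 25 of metastasis blood had 75.6 CPM (68.0 to 83.7) and carried 369 of the 382 UMIs. Clusters were built from the genes of the same cells, so that level is a description of cluster 25. Platelet markers summed to 2375 CPM in metastasis and 945 CPM in sham blood neutrophils. Without the cells that held 3 or more platelet markers, Abca1 stayed higher in metastasis neutrophils, at 46.7 CPM against 12.1 CPM in sham ones. Metastasis cells with 3 or more such markers had 100.2 CPM, and sham ones had 13.4 CPM.

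Abcg1 and Apoe did not follow Abca1 in these cells. Abcg1 had 60.8 CPM in metastasis and 89.1 CPM in sham blood neutrophils, a log2 ratio of -0.55 (-0.86 to -0.24). Within cluster 24 the values were 68.4 CPM and 90.2 CPM, again lower in metastasis blood. Apoe had 63.6 CPM in metastasis and 96.1 CPM in sham blood neutrophils (log2 ratio -0.60), with 51.8% of the metastasis UMIs in 15 cells that held 5 or more each.

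**Figure D3:**
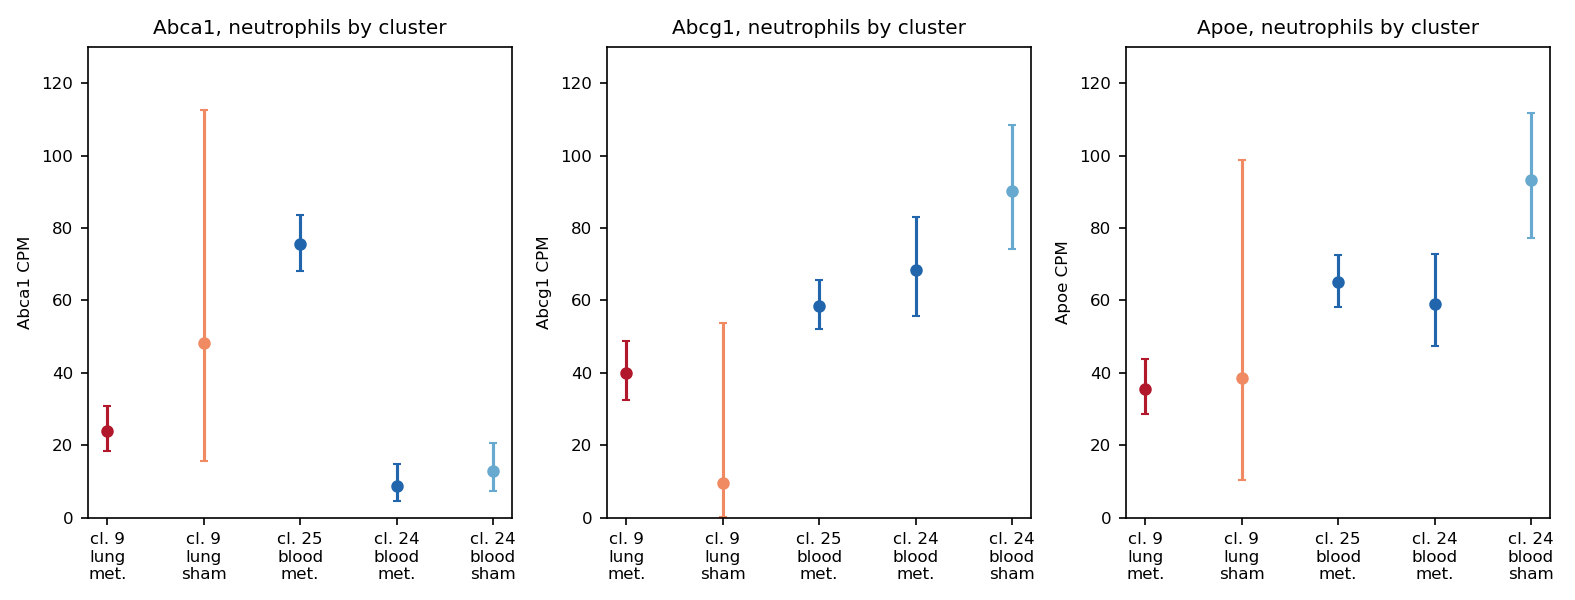
CPM of Abca1, Abcg1 and Apoe in neutrophils by cluster and library, with exact Poisson 95% intervals for counting error. Abca1 stands at 75.6 CPM in cluster 25 of metastasis blood and at 8.63 and 12.8 CPM in cluster 24 of metastasis and sham blood, while Abcg1 and Apoe have their highest values in cluster 24 of sham blood (90.2 and 93.4 CPM).

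Lung neutrophils rested on 1272 metastasis and 49 sham cells, of which 1254 and 48 were in cluster 9, led by G0s2, Camp and Ltf. Abca1 had 24.4 CPM in metastasis and 47.8 CPM in sham lung (62 and 5 UMIs), and Abcg1 40.1 CPM and 9.57 CPM (102 and 1 UMIs). The Abcg1 log2 ratio of 2.07 had an interval of -0.44 to 7.39, and without cells over 5% haemoglobin it was -0.073. No arm difference of these genes was detectable in lung neutrophils at this depth. Among the pathway genes there, beside a background of 17.4%, Olr1, a receptor for oxidised lipoprotein, was lower with 88.9 CPM in metastasis and 220.04 CPM in sham lung. The uptake receptor Lrp1 (21.2 and 9.57 CPM) and Srebf2, the regulator of cholesterol synthesis (29.1 and 9.57 CPM), were higher, each from 1 UMI in sham lung and with a counting interval that held equality.

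In classical monocytes of blood, Apoe and Lpl differed in opposite directions. Apoe had 3154 CPM (3081 to 3229) in 277 metastasis cells and 1560 CPM (1508 to 1614) in 229 sham cells, a log2 ratio of 1.02 (0.96 to 1.08). The share of cells with an Apoe UMI was 73.6% in metastasis and 76.9% in sham blood, so the share was not higher in metastasis blood. The 10% of cells with most Apoe held at least 108 Apoe UMIs per 10000 in metastasis blood and at least 43.0 in sham blood, while the medians were 10.2 and 8.23.

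That Apoe difference moved with platelet markers, which summed to 2347 CPM in metastasis and 771 CPM in sham classical monocytes of blood. Cells with 3 or more of the 8 platelet markers made up 42.6% of metastasis and 40.2% of sham cells. In them Apoe had 4042 CPM in metastasis and 1297 CPM in sham blood, a log2 ratio of 1.64 (1.55 to 1.73). In the other cells it had 2238 CPM and 1808 CPM, a log2 ratio of 0.31 (0.22 to 0.39), which is no longer past 2-fold. Marker lists of other cell types were also higher in metastasis classical monocytes of blood. Neutrophil markers summed to 7591 CPM in metastasis and 4550 CPM in sham cells, alveolar macrophage markers to 4228 CPM and 1479 CPM (with 6 and 7 of 12 at 0, Marco and Car4 among them in both), and interstitial macrophage markers to 234 CPM and 140 CPM. The part of these markers in the result was not tested.

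**Figure D4:**
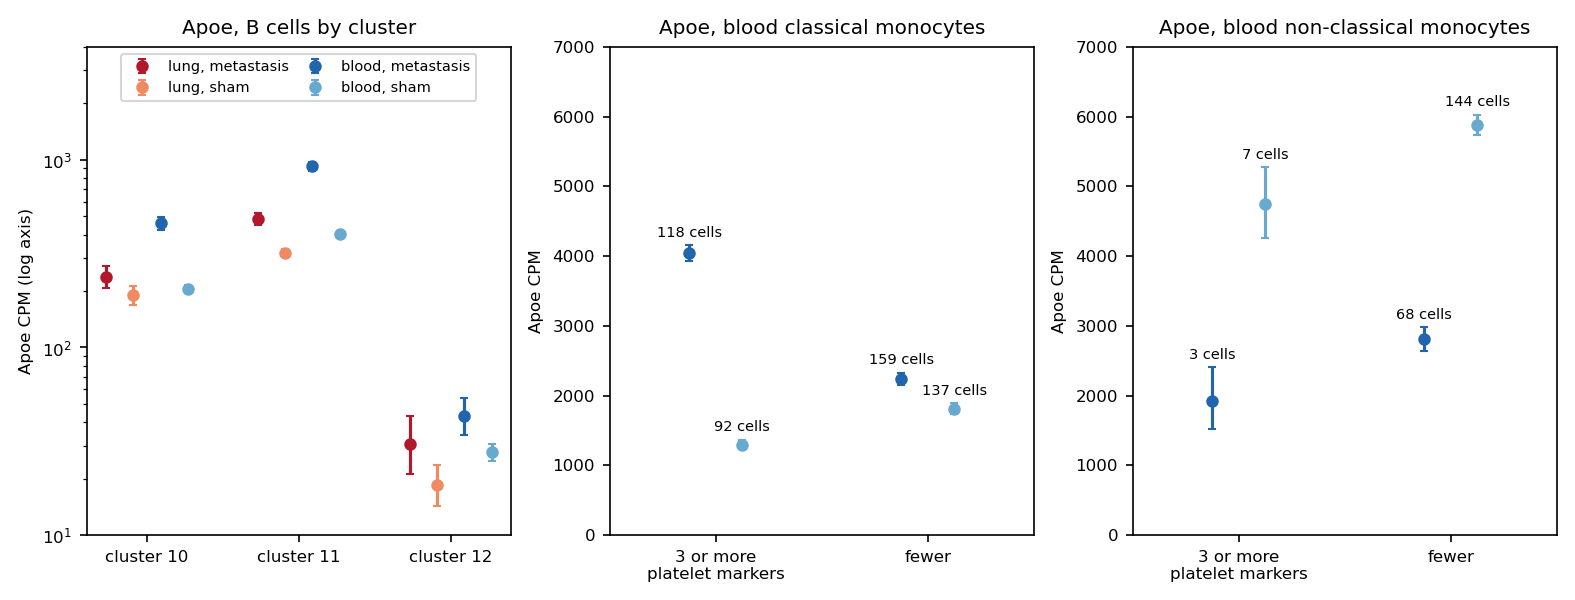
Apoe CPM in B cells by cluster (left, log axis, 4 libraries) and in blood monocytes split by platelet markers (middle and right), with exact Poisson 95% intervals for counting error. B cells of clusters 10 and 11 stand higher in metastasis than in sham blood, classical monocytes differ most among cells with 3 or more platelet markers (4042 and 1297 CPM), and non-classical monocytes are lower in metastasis blood on both sides of the split, though only 3 metastasis and 7 sham cells held 3 or more markers.

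In lung the Apoe order of classical monocytes was the other way round, with 1478 CPM (1373 to 1589) in 102 metastasis cells and 2395 CPM (2182.3 to 2622) in 38 sham cells. The log2 ratio of -0.70 (-0.87 to -0.53) was within 2-fold, and it was -0.10 when cells whose second-best class reached over 60% of the best were left out. Platelet markers summed to 82.7 CPM in metastasis and 0 CPM in sham lung for these cells. Apoc1 and Apoc2, small apolipoproteins whose genes neighbour Apoe, were also higher in metastasis blood. Apoc1 had 44.5 CPM and 21.0 CPM, a log2 ratio of 1.09, and Apoc2 had 305 CPM and 180 CPM, a log2 ratio of 0.76.

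Lpl in blood classical monocytes had 22 UMIs in 13 of 277 metastasis cells and 110 UMIs in 47 of 229 sham cells. The levels were 9.995 CPM (6.26 to 15.1) in metastasis and 51.3 CPM (42.2 to 61.8) in sham blood, a log2 ratio of -2.36 (-3.09 to -1.69). A UMI was present in 4.69% of metastasis and 20.5% of sham cells, against at most 0.06% of blood B cells of either arm. Lung gave the same order from few UMIs, 10.1 CPM in metastasis and 41.1 CPM in sham lung, from 5 and 8 UMIs. Markers of dendritic cells, which share a precursor with monocytes, summed to 67.7 CPM in metastasis and 165 CPM in sham classical monocytes of blood. Flt3 had the most in metastasis blood, with 41.3 CPM in metastasis and 59.7 CPM in sham cells. Cd209a had the most in sham blood, with 22.7 CPM in metastasis and 84.4 CPM in sham cells. Ccl22 and Fscn1 were at 0 in both libraries. Among cells with none of the dendritic markers Lpl had 11.5 CPM in metastasis and 50.1 CPM in sham blood, a log2 ratio of -2.12. Cells with 1 or more of them numbered 66 in metastasis and 96 in sham blood. In these Lpl had 6.32 CPM in metastasis and 52.7 CPM in sham blood, a log2 ratio of -3.06 (-4.99 to -1.62). Most of these markers had few UMIs, and the part of dendritic cells in the difference was not tested. Among cells with fewer than 3 platelet markers the log2 ratio was -2.14.

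Abca1 in blood classical monocytes had 33 UMIs (15.0 CPM) in metastasis and 5 UMIs (2.33 CPM) in sham cells, too few in total to count as measured. The sham level lay beside 2.60 CPM in barcodes of that library with under 200 genes. Of the 33 metastasis UMIs, 27 were in the cells with 3 or more platelet markers. Abcg1 had 46.8 CPM in metastasis and 49.0 CPM in sham cells, a log2 ratio of -0.065 (-0.47 to 0.34).

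In non-classical monocytes, the patrolling class, Apoe was lower in the metastasis library of both tissues. In blood it had 2724 CPM (2568 to 2888) in 71 metastasis cells and 5806 CPM (5666 to 5948) in 151 sham cells, a log2 ratio of -1.09 (-1.18 to -1.0005), which was -0.88 with classes from clusters and -0.91 as a mean over cells, both within 2-fold. In lung it had 2607 CPM (2481 to 2738) in 194 metastasis cells and 4301 CPM (4052 to 4561) in 82 sham cells, a log2 ratio of -0.72 (-0.83 to -0.61). The whole distribution was lower in metastasis blood, with medians of 21.3 UMIs per 10000 in metastasis and 48.7 in sham cells, though 97.2% and 98.7% of cells held a UMI. Platelet markers summed to 223 CPM in metastasis and 87.6 CPM in sham blood here, and without the 3 metastasis and 7 sham cells that held 3 or more of them the log2 ratio was -1.07. Neutrophil markers were higher in metastasis non-classical monocytes, at 4470 CPM in metastasis and 2128 CPM in sham blood and at 2512 CPM in metastasis and 576 CPM in sham lung. B cell markers were lower, at 57.6 CPM in metastasis and 262 CPM in sham blood and at 34.0 CPM in metastasis and 294 CPM in sham lung. The part of these markers in the Apoe difference was not tested. Abcg1 had 161 CPM in metastasis and 157 CPM in sham blood, and 199 CPM in metastasis and 166 CPM in sham lung, with both intervals of the ratio holding equality.

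Alveolar macrophages differed little between the arms. Lpl was lower in metastasis lung by a log2 ratio of -0.36 (-0.58 to -0.15) and Abcg1 by -0.28 (-0.54 to -0.025), both within 2-fold. Abca1 had a log2 ratio of 0.24 (-0.53 to 1.01), which turned to -0.57 without cells over 5% haemoglobin. These values rest on 26 metastasis and 31 sham cells.

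B cells of blood had 416 CPM (398 to 435) of Apoe in 1721 metastasis cells and 174 CPM (170.0 to 179) in 7999 sham cells, a log2 ratio of 1.25 (1.18 to 1.33). The thinned share of cells with an Apoe UMI was 20.2% in metastasis and 12.005% in sham blood, with 17 and 27 shallower cells left out. Cells with 5 or more Apoe UMIs made up 7.55% of metastasis and 4.34% of sham B cells. Apoe was higher in metastasis blood in each of the 3 main B cell clusters, and past 2-fold in clusters 10 and 11. In cluster 11, led by Cd86 and Cd83, Apoe had 923 CPM in metastasis and 400 CPM in sham blood. In cluster 10, led by Fcer2a and the MHC class II gene H2-Aa, it had 459 CPM and 204 CPM. In cluster 12, led by Agbl1 and Vpreb3, it had 43.1 CPM and 27.7 CPM. The level differed more between clusters than between arms, but clusters were built from the genes of the same cells, so this describes the clusters.

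Lung B cells had 280 CPM (263 to 297) in 2021 metastasis cells and 213 CPM (204 to 222) in 4583 sham cells, a log2 ratio of 0.39 (0.29 to 0.50), within 2-fold. In clusters 10, 11 and 12 the log2 ratios were 0.33, 0.60 and 0.73. Monocyte markers, 19 genes, summed to 934 CPM in B cells with an Apoe UMI and 819 CPM in those without in metastasis blood. In sham blood these sums were 819 CPM and 748 CPM, in metastasis lung 1437 CPM and 1154 CPM, and in sham lung 1711 CPM and 1173 CPM. B cell markers were lower in the cells with an Apoe UMI in all 4 libraries, at 9312 to 9763 CPM with and 11562 to 12162 CPM without. The part of these markers in the Apoe level was not tested. The 10 classical monocyte markers alone summed to 815 CPM in B cells of metastasis blood and 728 CPM in those of sham blood, against 25157 CPM and 33219 CPM in the classical monocytes of the same libraries. Abca1 was also slightly higher in metastasis B cells, by a log2 ratio of 0.31 (0.14 to 0.48) in blood and 0.19 (0.030 to 0.35) in lung. Abcg1 had 0.33 (0.13 to 0.53) in blood and -0.15 (-0.35 to 0.049) in lung. B cells with an Abca1 UMI had more Apoe than those without in every library, for example 754 CPM and 352 CPM in metastasis blood, although depth per cell was also higher in the first group (medians of 2473 and 2395.5 UMIs there). Both genes also differed by cluster. In metastasis blood Abca1 had 122 CPM in cluster 11 and 39.1 CPM in cluster 12, and Apoe had 923 CPM and 43.1 CPM. The part of the cluster mix in this link was not tested.

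Lung and blood libraries of the same arm were compared next, and tissue and cell preparation cannot be told apart in that comparison. Abca1 was higher in lung in B cells and non-classical monocytes of both arms. In B cells the fold was 1.69 (1.46 to 1.96) in metastasis and 1.84 (1.71 to 1.98) in sham mice. In non-classical monocytes it was 2.26 (1.23 to 4.45) in metastasis and 4.37 (2.35 to 8.16) in sham mice, the second from 46 UMIs over both libraries and so not counted as measured. Abcg1 in B cells was 1.35 (1.13 to 1.61) times its blood level in metastasis lung and 1.88 (1.73 to 2.05) times in sham lung.

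Apoe in classical monocytes was lower in lung than in blood in metastasis mice (log2 ratio -1.09, -1.21 to -0.98) and higher in lung than in blood in sham mice (0.62, 0.48 to 0.76). The metastasis and sham comparisons above use the same 4 values, so these are not further evidence. The 2-fold limit was passed by 29.3% of measured genes in metastasis neutrophils, 9.69% in classical monocytes, 6.6% in non-classical monocytes, 3.65% in B cells, 6.43% in T cells and 16.2% in NK cells. Of the 5 genes, 1 of 3 passed in neutrophils (Abca1, lower in lung), 1 of 2 in classical monocytes (Apoe, lower), 1 of 3 in non-classical monocytes (Abca1, higher), 0 of 3 in B cells and 0 of 2 in both T cells and NK cells. In sham mice 37.8%, 14.5%, 8.9%, 6.32%, 7.72% and 7.94% of measured genes passed in the same order of classes. There 2 of 2 passed in neutrophils (Abcg1 and Apoe, lower in lung, from 1 and 4 lung UMIs), and 0 of 3, 0 of 2, 0 of 3 and 0 of 3 in classical monocytes, non-classical monocytes, B cells and T cells. In NK cells 1 of 2 passed, Abca1, with 32.4 CPM in lung and 15.6 CPM in blood.

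Neutrophils of lung and blood were in different clusters, and the median measured gene was lower in lung by a log2 ratio of -0.44 in metastasis and -0.52 in sham mice. Relative to that median, Abca1 in metastasis neutrophils had a log2 ratio of -0.85 in place of -1.29, and Apoe in sham neutrophils had -0.81 in place of -1.33, both within 2-fold. Abcg1 in sham neutrophils had -2.70 in place of -3.22, from 1 lung UMI. The Abca1 level of metastasis lung neutrophils, 24.4 CPM, lay between 75.6 CPM in cluster 25 and 8.63 CPM in cluster 24 of metastasis blood. In sham mice Abca1 went the other way, with 47.8 CPM in lung and 12.5 CPM in blood neutrophils. That fold of 3.83 (1.10 to 10.9) came from 5 and 16 UMIs and so was not counted as measured.

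Outside neutrophils, the surrounding pathway gave few genes past 2-fold between the arms. In blood B cells 14 of 14 cholesterol synthesis genes were measured and 0 passed, with a median log2 ratio of 0.034 beside 0.030 for all measured genes. Of 13 LXR targets, 12 were measured in blood B cells and 1 passed, with a median of 0.21, beside 2.67% of all measured genes past 2-fold. That target was Apoe, already reported above. In lung B cells all 14 synthesis genes were again measured and 0 passed, beside 1.03% of all measured genes.

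In blood neutrophils 3 of 8 measured LXR targets were higher and 1 was lower in metastasis blood, beside 18.2% of all measured genes past 2-fold in that class. The median log2 ratio of these 8 targets was -0.28, and that of all measured genes was -0.011. The targets past 2-fold beside Abca1 were Lpcat3, a phospholipid-remodelling enzyme (28.6 CPM in metastasis and 11.7 CPM in sham), Srebf1, a regulator of fatty acid synthesis (9.68 and 4.69 CPM), and Arl4c, a small GTPase, which was lower (25.9 and 88.3 CPM). Lipg, endothelial lipase, had 234 UMIs in metastasis and 1 in sham neutrophils, or 36.6 CPM and 0.78 CPM, a log2 ratio of 5.55 (3.06 to 10.9). Nceh1, which releases stored cholesterol from its esters, was lower (17.5 and 44.5 CPM), and Apoc2 was higher (19.2 and 8.59 CPM), as was Lrpap1, a chaperone of lipoprotein receptors (9.84 and 4.69 CPM). The counting intervals of Srebf1 and Lrpap1 held equality, and the differing clusters named above apply to all of these genes.

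Among blood classical monocytes, 2 of 5 measured apolipoprotein and lipase genes were higher in metastasis blood (Apoe and Apoc1) and 1 was lower (Lpl). The share of all measured genes past 2-fold in that class was 2.99%. Of 10 measured LXR targets there, 1 was higher (Apoe) and 1 lower (Lpl), with a median log2 ratio of -0.069 beside 0.041 for all measured genes. Apoe and Lpl are among the 5 genes already reported above, so these target counts add no further gene. None of the 5 measured receptors, 5 uptake receptors, 8 lysosomal and storage genes or 8 synthesis genes passed. In blood non-classical monocytes 2 of 7 LXR targets were lower, Apoe and Lpcat3 (19.2 CPM in metastasis and 40.7 CPM in sham blood, from 8 and 46 UMIs), beside 4.01% of all measured genes past 2-fold. In lung non-classical monocytes Fabp5, a fatty acid carrier, was higher at 79.3 CPM in metastasis lung and 19.3 CPM in sham lung, and 0 of 8 LXR targets passed. There 2.82% of all measured genes passed. In alveolar macrophages 0 of 4 LXR targets and 0 of 8 lysosomal and storage genes passed, beside 2.46% of all measured genes.

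Across 23 class and library profiles with at least 50 cells, none of them alveolar macrophages, each gene had its own nearest genes by Pearson correlation of log2(CPM + 10). Apoe was most like Evi5 (0.95), Eps8 (0.95) and Irf5 (0.94), and Nr1h3 most like Epha4 (0.98), Cyp2ab1 (0.98) and Ly6i (0.97). Abcg1 was most like Vti1a (0.93), Foxk1 (0.90) and Msn (0.88), Lpl most like Stx3 (0.87), Arhgef37 (0.86) and Vwa5a (0.86), and Abca1 most like Ankrd37 (0.81), Arfgef2 (0.80) and Ttpal (0.77). Among the 5 genes the correlations ran from -0.26 between Abca1 and Lpl to 0.72 between Abcg1 and Nr1h3. The profiles share 4 libraries and their depths, so these values describe the pattern over classes. Among these profiles Lpl passed 11.6 CPM only in classical monocytes of sham blood, at 51.3 CPM, so its correlations rest largely on that profile. Nr1h3 passed 8.07 CPM only in non-classical monocytes, at 14.4 to 30.9 CPM from 6 to 18 UMIs, and its correlations rest largely on those.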

How the data were processed

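The deposited values are UMI counts per gene and barcode, unnormalized, in 4 matrices. The authors used Cell Ranger 7.0.0, Seurat 4.3.0.1, R 4.3.1 and build GRCm38.p6, per the submitters' processing notes, and the treatment of reads that fit several genes is not stated there. The 5 genes, gene lists and markers were chosen with earlier results of these data known.

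A barcode was kept as a cell from 200 detected genes and up to 10% mitochondrial UMIs. Cells with a Scrublet score above 0.3 were left out as doublets (1.29% to 5.69% per library), where the automatic limit would have marked 0.42% to 3.36%. A cell took the class with the highest share of its markers detected, given at least 4 markers, at least 40% of the list and no other class above 80% of that share. Platelet markers were exempt from the last rule, so blood cells carrying them were kept. The second-class limit was set after seeing the data, since 60% removed many monocytes. Cells of the deposited files came without classes, so these are rebuilt names. The B cell gate kept some cells of a platelet-led cluster, so B cell values are also given per cluster.

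UMIs were summed per class and library and divided by the total without haemoglobin. The median depth per class and library was 1552 to 8710 UMIs over neutrophils, both monocyte classes and B cells. Levels have exact Poisson, shares Clopper-Pearson and ratios conditional binomial 95% intervals, which cover counting error only, as does the floor of 3 counts. Leiden clustering (27 clusters, resolution 1, 30 components, 20 neighbours, 2000 variable genes) was the alternative to the gate. Ratios were tested on simulated data with known folds. Named genes were the 5 members, list genes at 2-fold or more (not all are reported here), and the 3 genes of highest correlation with each member. Alternatives covered filters, gates, doublets, scaling, haemoglobin, platelet and dendritic markers. Tools were Python 3.11.15, scipy 1.17.1, scanpy 1.11.5 and leidenalg 0.10.2.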

Additional observations from a re-analysis of the deposited data

Results flagged for a closer look

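Apoe in classical monocytes went in opposite directions between the arms in the 2 tissues. In lung it was lower in metastasis (1478 CPM) than in sham mice (2395 CPM), a log2 ratio of -0.70, and in blood it was higher in metastasis (3154 CPM) than in sham mice (1560 CPM), a log2 ratio of 1.02. The difference between the tissues was not tested, since each value is 1 library. Both ratios shrank under an alternative, to -0.10 in lung with a stricter limit on the second-best class and to 0.31 in blood without cells that held 3 or more platelet markers.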

How the results depend on the processing

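No paired analysis was possible because each group has 1 library. The 24 member ratios were recomputed under 10 or more alternatives each, and of 247 values 225 stayed within the counting interval of the reported ratio and 20 did not. The alternatives on platelet markers, dendritic markers, the 60% limit and the shared neutrophil cluster were chosen after seeing the data. The other 2 values belong to ratios past 2-fold that changed sign. They were Abcg1 in lung neutrophils, -0.073 without cells over 5% haemoglobin and within its counting interval, and Abca1 in blood neutrophils, -0.57 in the cluster that both blood libraries fill. Apoe log2 ratios moved most often, partly because their intervals are narrow. In lung classical monocytes Apoe was -0.97 with classes from clusters and -0.10 with the 60% limit. In lung non-classical monocytes it was -0.85 from clusters, -0.37 with the 60% limit and -0.55 as a mean over cells. In lung B cells it was 0.51 as a mean over cells. In blood classical monocytes it was 1.24 from clusters, 0.93 without cells over 5% haemoglobin, 0.31 without platelet-marked cells, 1.11 with the 60% limit and 1.19 as a mean over cells. Of these, 0.93 and 0.31 were within 2-fold. In blood non-classical monocytes it was -0.88 from clusters, -1.18 with haemoglobin included and -0.91 as a mean over cells, the first and last within 2-fold. In blood B cells it was 1.15 with at least 400 genes, 1.36 from clusters, 1.03 with a stricter gate, 1.09 with haemoglobin included and 1.36 as a mean over cells. Abca1 in alveolar macrophages, 0.24 and within 2-fold, was -0.57 without cells over 5% haemoglobin.

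Counts of genes past 2-fold grew when 20 UMIs sufficed, to 1514 in neutrophils, 410 in classical monocytes, 414 in non-classical monocytes, 257 in alveolar macrophages and 343 in B cells of lung. In blood they grew to 1941, 527, 617 and 704 in neutrophils, classical monocytes, non-classical monocytes and B cells. Classes from clusters gave 141 in lung non-classical, 432 in blood classical and 441 in blood non-classical monocytes. The cause of the change with cluster classes was not tested. Depth limits the small groups, such as the 49 neutrophils of sham lung, where 1 UMI is 9.57 CPM.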

Other observations

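Cells outside the immune classes also carried these genes. Fibroblasts, which build the matrix of the lung, had 2434 CPM of Apoe in 20 cells of metastasis lung and 1275 CPM in 32 cells of sham lung. Their Abca1 was 220 CPM (126 to 357) in metastasis and 140 CPM (84.3 to 219) in sham lung, intervals that overlapped, and Lpl was 124 CPM and 133 CPM. Endothelial cells held 11 Lpl UMIs in 24 metastasis cells and 4 in 49 sham cells.

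Barcodes of the platelet gate in blood had 1233 CPM of Apoe in 247 metastasis cells and 37.7 CPM in 280 sham cells, but 1 metastasis cell held 167 of the 559 UMIs and 7.69% of the cells held any. Abca1 in these barcodes had 34 UMIs in metastasis and 0 in sham blood, where the floor of 3 UMIs is 9.44 CPM. T cells of blood had 6 Apoe UMIs in metastasis and 94 in sham mice, or 2.79 CPM and 6.97 CPM, each below the 6.92 CPM and 14.1 CPM of barcodes with under 200 genes in the same library. Of the 94 sham UMIs, 30 were in 1 T cell.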
